A study of Mus musculus with 2 samples.

Results

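Heat shock proteins and chaperonins are the machines that fold new proteins and refold damaged ones. The genes described here were chosen by name alone, as probe sets listed for a single gene whose symbol belongs to the Hspa, Hspb, Hspd, Hspe, Hsph, Hsp90, Dnaja, Dnajb, Dnajc, Cct, Tcp1 or Bag series. This gave 210 of 45101 probe sets, which stood for 88 of 18194 named genes. No measured value entered the naming rule, but the members were chosen with earlier results of these data known. The values are array signals of 2 single cells picked from retina of CD1 (an albino outbred mouse strain), with no genetic change or treatment named. One came from an embryo of day 12.5 (E12.5, the embryonic cell) and the other from a pup at postnatal day 0 (P0, the newborn cell), and where signals are given as a pair the embryonic cell stands first. Papain dissociation, capillary picking and 35 PCR cycles on cDNA primed with oligo dT were common to both cells. The submitters placed both in the developing ciliary body from their expression after the arrays were read. Neither age has a replicate and no test was possible, so each difference is between these 2 cells, not between ages, and the number of arrays limits the precision.

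Hsp70 proteins bind unfolded stretches of a client protein and let go of them in a cycle driven by ATP. J-domain proteins (the Dnaj series) bring clients and start ATP hydrolysis, while exchange factors such as the Bag proteins release the nucleotide. Hsp90 completes the folding of kinases and steroid receptors, and the chaperonins are hollow rings that enclose their clients, the cytosolic ring (TRiC) being known for actin and tubulin. Most members are made at all times, some are induced by heat shock factor when proteins unfold in the cytosol, and others by the unfolded protein response when they unfold in the endoplasmic reticulum (ER).

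A gene was taken as above background when its signal exceeded that array's limit, 237.1 in the embryonic cell and 342.0 in the newborn cell, which is the 99th percentile of 201 probe sets for families such as olfactory receptors that have no known role in the eye. It was called higher in 1 cell when it was above the limit there and differed by 4-fold or more, with each signal first raised to its limit. A fold against a signal under the limit is written "at least", being a lower bound. The newborn limit is the higher of the 2. A call on such a bound therefore needs a higher signal in the embryonic cell than in the newborn cell. A signal below the limit means not detected, not absent. Of 14 ciliary margin markers 8 were above the limit in each cell, 6 in both and 4 in neither. Zic1 (19476 and 9865) and Zic2 (4640 and 2787) were in both. Otx1, Cdon, Wfdc1 (10696 and 414) and Gja1 were called higher in the embryonic cell, and Bmp7 and Sox9 (48.1 and 9110) in the newborn cell. Since the cells were placed in the ciliary body by their expression, these markers are no independent check. Photoreceptor (6 genes), microglia (6) and red cell (3) markers were below the limits throughout. Above the limit in the newborn cell alone was Rlbp1, 1 of 7 pigment epithelium genes (list sums 363 and 16468). So were Pdgfra and Col1a2, 2 of 7 mesenchymal genes (list sums 506 and 6068). Rgs5, 1 of 6 vascular genes (list sums 209 and 1346), and Ebf3, 1 of 8 ganglion cell genes (list sums 521 and 1401), were too. Of 10 amacrine and horizontal cell genes (list sums 5213 and 7151), Gad2 was above the limit in both cells. Slc32a1 of that list was above it in the embryonic cell alone (signals 438 and 322). Of 10 lens genes (list sums 661 and 849), Cryba2 was above it in the embryonic cell alone (signals 342 and 171). Their part in the results below was not tested. The 3' to 5' signal ratio was 6.17 and 2.20 for actin and 1.06 and 1.43 for Gapdh in the embryonic and the newborn cell.

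About equal shares of the family were detected in both cells. Of the 88 member genes, 41 (46.6%) were above the limit in the embryonic cell and 38 (43.2%) in the newborn cell, where the shares of all named genes were 30.7% and 28.4%. A total of 32 members (36.4%) were above it in both cells, against 18.9% of all named genes. The embryonic cell alone had 9 more and the newborn cell alone 6 more, and 41 members were above the limit in neither. Called higher were 5 members (5.68%) in the newborn cell and 4 (4.55%) in the embryonic cell, where the shares of all named genes were 9.46% and 7.41%. Of the 32 members in both cells, 24 (75.0%) were within 2-fold, as were 54.2% of all 3434 genes in both cells. Their median log2 ratio, newborn over embryonic, was -0.51 (SD 0.95 over genes), while the median of all genes in both cells was 0.02 (SD 1.49). With hybridisation spike-ins as the scale, 11 of 88 members against 11.7% of all named genes were called higher in the embryonic cell. Higher in the newborn cell were 5 of 88 against 6.08%, so the gap in calls between members and all genes depends on the scale. On the spike-in scale the median over all genes in both cells moved to -0.85, so a ratio near 0 has no settled sign. On that scale Hspa5, Hsph1, Dnaja1, Dnajb11, Dnajc7, Bag5 and Cct6a went from higher to lower in the newborn cell, and after quantile normalisation Hspa8 and Cct8 went the other way.

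**Figure D1:**
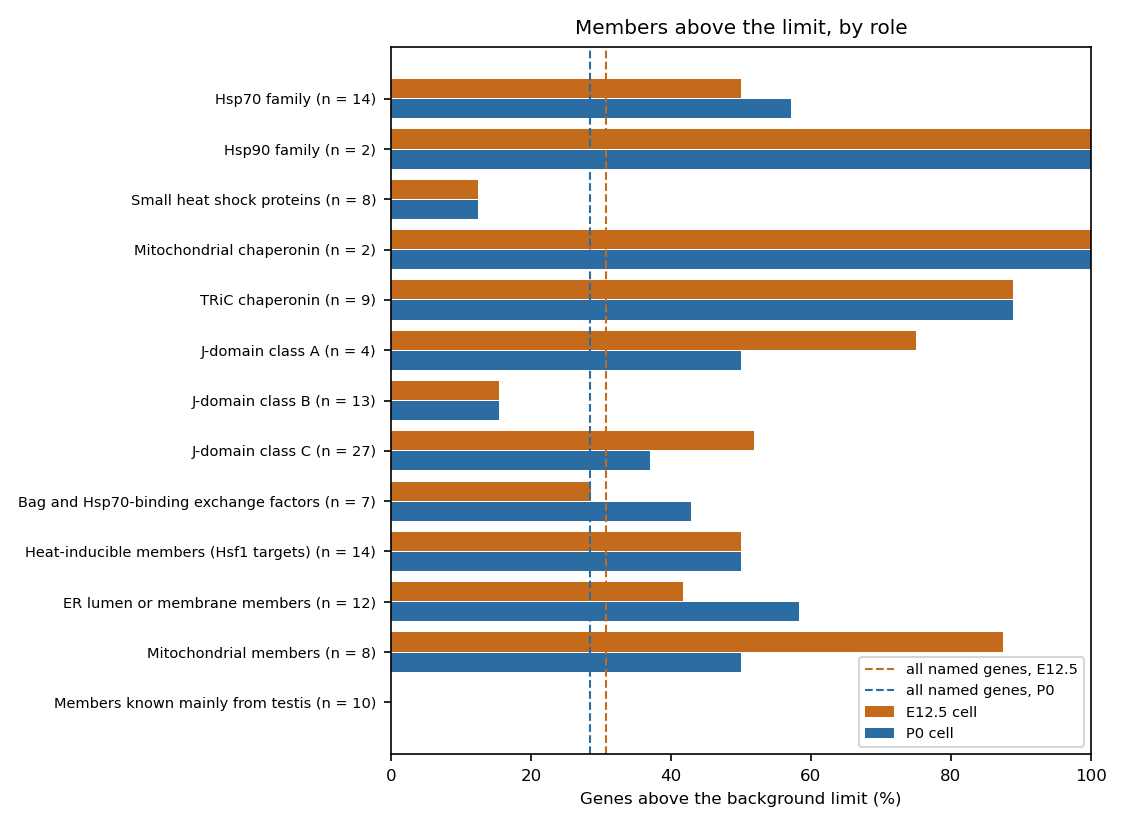
Percent of genes above the background limit in the E12.5, embryonic cell (orange bars) and in the P0, newborn cell (blue bars), for each role or compartment, with the number of genes measured in brackets. Dashed lines mark all named genes, 30.7% and 28.4%. The TRiC ring reached 8 of 9 genes in both cells, the small heat shock proteins 1 of 8, and genes known mainly from testis 0 of 10.

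Among the Hsp70 proteins, the constitutive forms of cytosol, mitochondrion and ER were detected in both cells at similar signals. Of 14 genes, 7 were above the limit in the embryonic cell and 8 in the newborn cell. Hspa8, the constitutive cytosolic Hsp70, had a signal of 42598 and 41113. Hspa9, the mitochondrial form, had 6600 and 5987, and Hspa5, the form of the ER lumen also known as BiP, had 18990 and 28648. Those 3 forms differed by 1.51-fold or less, and the other probe sets of Hspa8 that were above the limit by 1.36-fold or less.

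The 1 Hsp70 gene that was called is Hspa13, a microsomal Hsp70. Its signal was 33.5 in the embryonic cell and 1809 in the newborn cell, at least 7.63-fold higher in the newborn cell, and a second probe set gave 1.52 and 626. The atypical Hsp70 of the ribosome, Hspa14, had 1012 and 626, and 749 and 53.6 by a second probe set. Hspa12a and Hspa12b, distant relatives, were detected in neither cell, nor were the testis forms Hspa2 and Hspa1l.

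The Hsp110 genes encode large relatives of Hsp70 that serve it as exchange factors, and their probe sets differed from each other. Hspa4 had 1394 and 440, and a second probe set had 3030 and 51.7, so both were higher in the embryonic cell and the second was past 4-fold. Hspa4l had 1337 and 2654 by the probe set used, and 9.14 and 4830, and 3.08 and 6157, by the others above a limit, all higher in the newborn cell. Hsph1 had 4548 and 7206, while a second probe set had 1772 and 40.6 and thus the opposite order. Of these 3 genes, therefore, Hsph1 has no settled direction, and the calls of Hspa4 and Hspa4l depend on the probe set.

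The Bag proteins are exchange factors with a shared domain that binds Hsp70, and 1 of them had the largest lower bound of any member. Bag1, which also binds Bcl2 and steroid receptors, had a signal of 130 and 11174, at least 47.1-fold higher in the newborn cell. It has 1 probe set, so the array offers no second reading. Bag5 (2231 and 3409) and Bag6 (4732 and 4643), a chaperone for membrane proteins that leave the ribosome, were above the limit in both cells and within 2-fold. Bag2, Bag3, Bag4 and the exchange factor gene Hspbp1 were detected in neither.

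The J-domain genes, which present clients to Hsp70, made up 5 of the 9 called members and 44 of the 88 measured. With 4 of class A, 13 of class B and 27 of class C, the embryonic cell had 19 above the limit and the newborn cell 14. The shares of all named genes were 30.7% and 28.4%. In class A, which holds the closest relatives of bacterial DnaJ, Dnaja1 had 8218 and 8776 and Dnaja2 had 6651 and 2204. Other probe sets were further apart: those of Dnaja1 gave 2399 and 10947, and 1422 and 8871, past 4-fold towards the newborn cell, and 1 of Dnaja2 gave 3598 and 39.5, past 4-fold towards the embryonic cell. Dnaja3, the mitochondrial form, was detected in the embryonic cell alone (780 against 8.79, and 649 against 2.01 by a second probe set). Dnaja4 was below the limit by the probe set used, although its others reached 915 and 476 in the newborn cell, against 24.7 and 6.02 in the embryonic cell.

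Class B was mostly not detected, with 3 of 13 genes above the limit in either cell. They were Dnajb9 and Dnajb11, both of the ER, and Dnajb12 of the ER membrane, which had 274 and 130. Dnajb1, the heat-inducible partner of Hsp70, had 145 and 10.8, and none of the 4 probe sets of Dnajb6, which keeps aggregates apart, was above the limit.

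Class C, whose members share only the J domain and have specialised sites of work, held 4 called genes of 27, 2 in each direction. Of all named genes, 9.46% were called higher in the newborn cell and 7.41% in the embryonic cell. Dnajc2, which works at the ribosome as part of the complex that receives new chains, had 107 and 8590, at least 36.2-fold higher in the newborn cell. A second probe set of it, 56.2 against 1566, was past 4-fold the same way. Dnajc3, an ER protein that also inhibits a kinase of the stress response, had 80.4 and 4714, at least 19.9-fold higher in the newborn cell. Of its other probe sets 1 was past 4-fold (215 against 1643) and 1 was not (149 against 399). Both genes were thus found in the newborn cell alone, but as a mean over all their probe sets their log2 ratios of 1.05 (Dnajc2) and 1.23 (Dnajc3) were short of a call.

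Towards the embryonic cell, Dnajc15, a J protein of the mitochondrial inner membrane, had 4056 there and 62.9 in the newborn cell, at least 11.9-fold higher. It has 1 probe set, so there is no second reading. Dnajc21, which takes part in ribosome maturation, had 2280 and 5.33, at least 6.67-fold higher, but its 4 other probe sets were below the limit in both cells. Dnajc9, a histone chaperone, stood just outside the threshold with 1348 and 97.7, at least 3.94-fold higher in the embryonic cell. Dnajc13 of endosomes (1073 against 9.14), Dnajc30 of mitochondria (557 against 16.0), Dnajc18 (428 against 86.0) and Dnajc27 (319 against 13.4) were also detected in the embryonic cell alone. All were short of 4 times the newborn limit of 342.0, and so were not called. Dnajc14 was detected in the newborn cell alone, at 535 against 19.4.

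The other 7 class C genes above a limit were above it in both cells. The synaptic vesicle and lysosome chaperone Dnajc5 had 5275 and 3674, the ER reductase Dnajc10 had 3183 and 1600, and Dnajc11 of the mitochondrial contact site had 3096 and 2060. Dnajc7, an adaptor between Hsp70 and Hsp90, had 1296 and 1679, Dnajc17 had 1431 and 809, and Dnajc4 had 1007 and 3783. Dnajc4 was the farthest apart of these, 3.76-fold towards the newborn cell, short of a call. For Dnajc8, of the spliceosome, the probe set used gave 6627 and 6286 and a second gave 418 and 6107, so that its ratio rests on the probe set.

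**Figure D2:**
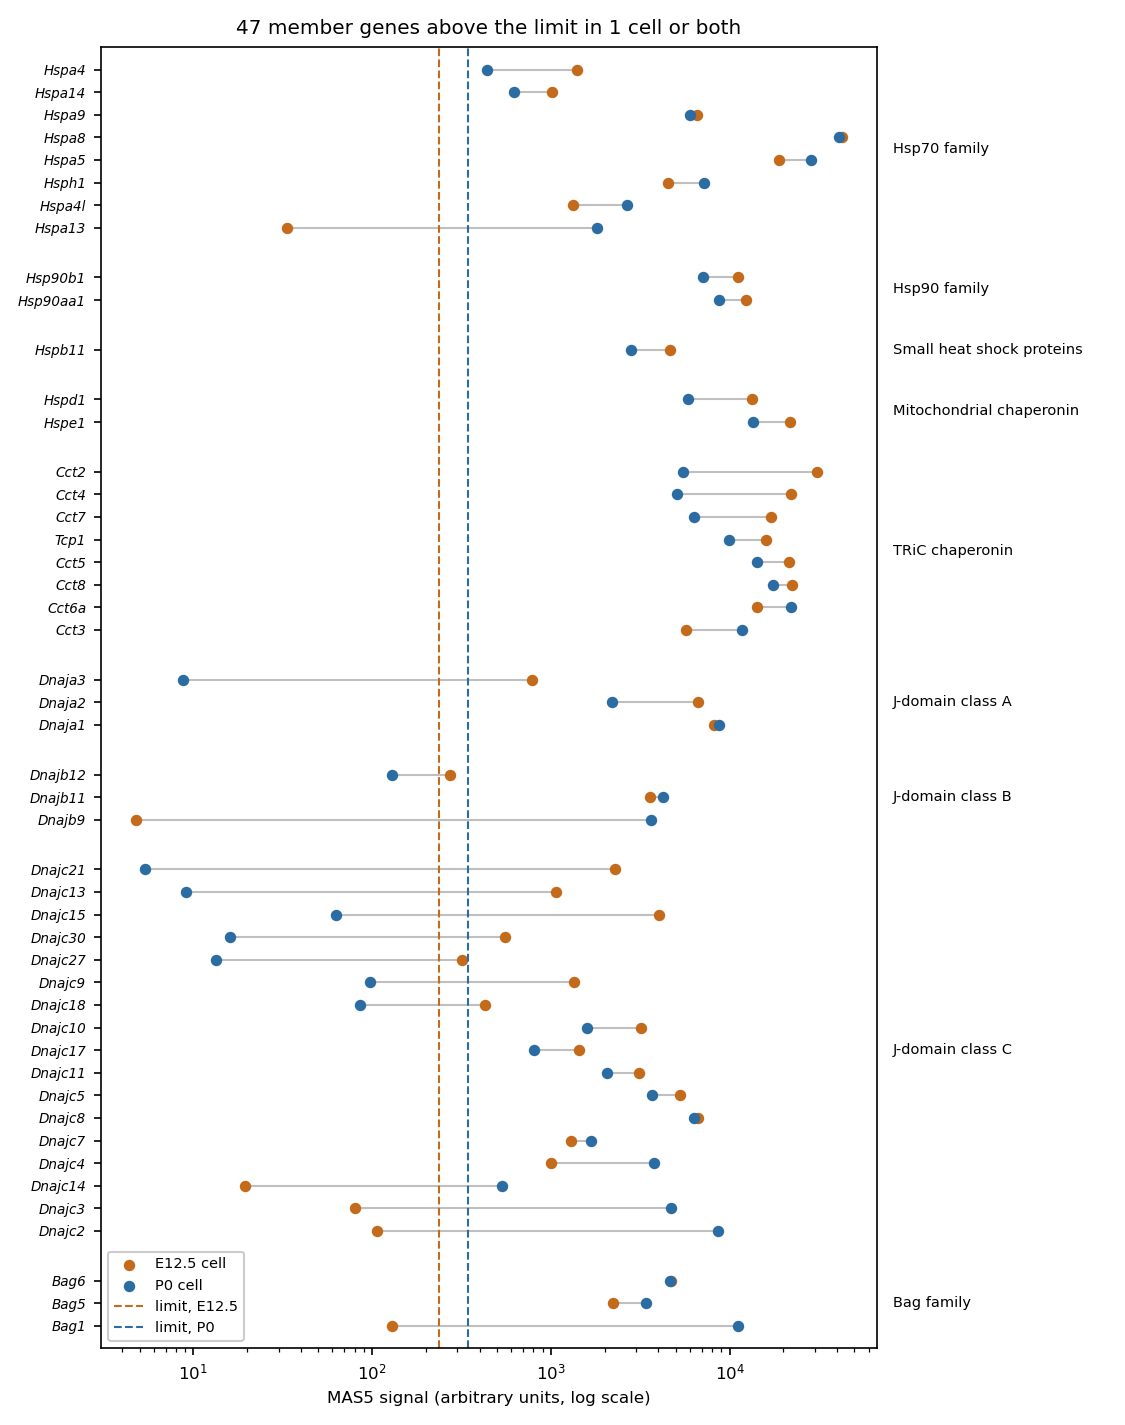
MAS5 signal (log scale) in the E12.5, embryonic cell (orange) and the P0, newborn cell (blue) of the 47 member genes above the limit in at least 1 cell, grouped by role, with 1 probe set per gene. Dashed lines mark the limits, 237.1 and 342.0. The TRiC genes sit far above both limits in both cells, while Bag1, Dnajb9, Dnajc2, Dnajc3 and Hspa13 are below the embryonic limit and Dnajc15 and Dnajc21 below the newborn limit.

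Of 3 Hsp90 genes listed, 2 were measured, and both were above the limit in both cells. Hsp90ab1 was not among those measured. Hsp90aa1, the cytosolic form that rises with stress, had 12349 and 8753, and its other probe sets that were above the limit were also higher in the embryonic cell (14021 against 5371, and 4271 against 3364). Hsp90b1, the ER form, had 11207 and 7117. Their log2 ratios of -0.50 and -0.66 are smaller than the SD of 0.84 that separates probe sets of the same gene. Of 16 measured co-chaperones of Hsp90, which are not members, 16 were above the limit in the embryonic cell and 12 in the newborn cell. Called higher were 5 in the embryonic cell and 1 in the newborn cell, where the shares of all named genes were 7.41% and 9.46%. Higher in the embryonic cell were Tomm34 (8451 against 231, at least 24.7-fold), Nudcd2 (6704 against 113, at least 19.6-fold), Sugt1 (3280 against 398, 8.25-fold), Fkbp5 (1640 against 50.7, at least 4.79-fold) and Nudc (9875 against 2266, 4.36-fold). Ahsa1, which stimulates the ATPase of Hsp90, was 7.12-fold higher in the newborn cell (522 against 3716). A second probe set of Sugt1 had the opposite order, 152 against 1213.

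Small heat shock proteins, which hold unfolded proteins without ATP, were mostly below the limits. Of 8 genes, Hspb11 alone was above the limit, with 4633 in the embryonic cell and 2823 in the newborn cell, and its product is better known as a part of the intraflagellar transport complex of cilia. Hspb1, Hspb2, Hspb3, Hspb6, Hspb7, Hspb8 and Hspb9 ran from 12.5 to 155 in the embryonic cell and from 11.1 to 104 in the newborn cell. The lens proteins Cryaa and Cryab, small heat shock proteins under other names, had at most 72.6 in either cell. A limit at the 95th percentile put 3 of the 8 genes above it in each cell, so the count depends on the limit.

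The TRiC chaperonin was detected in full. The ring has 8 different subunits, encoded by Tcp1, Cct2, Cct3, Cct4, Cct5, Cct6a, Cct7 and Cct8, and all 8 were above the limit in both cells, the lowest signal in any of them being 5096. The ninth gene, Cct6b, replaces Cct6a in testis and had 34.2 and 30.1. Cct2 had 30915 and 5483 and was 5.64-fold higher in the embryonic cell, and its other probe sets (11822 against 1570, and 17183 against 2382) were past 4-fold the same way. Cct4 had 22131 and 5096, 4.34-fold higher in the embryonic cell. Of its 5 other probe sets above a limit, 4 leaned the same way and 1, a weak one with 283 and 434, the other way. The call of Cct4 was lost with the mean over probe sets and after quantile normalisation.

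The other subunits differed by 2.70-fold or less by the probe sets used. Cct7 had 17143 and 6350, Tcp1 had 16014 and 9947, Cct5 had 21445 and 14262, and Cct8 had 22318 and 17428. Cct6a (14291 and 22020) and Cct3 (5697 and 11684) were the pair with the higher signal in the newborn cell, though with the arrays scaled to the spike-ins Cct6a had a log2 ratio of -0.24. A weak probe set of Cct3 was past 4-fold the same way (344 against 1777). Of the genes that feed this ring or work on its products, which are not members, all 13 measured were above the limit in at least 1 cell. Of these, 3 were called higher in the newborn cell and 2 in the embryonic cell, against 9.46% and 7.41% of all named genes. The prefoldin subunit gene Pfdn4 (44.3 against 4093, at least 17.3-fold) and the tubulin cofactor genes Tbcc (253 against 4509, 17.8-fold) and Tbce (205 against 2505, at least 10.6-fold) were higher in the newborn cell. The phosducin-like genes Pdcl (2952 against 24.1, at least 8.63-fold) and Pdcl3 (2500 against 241, at least 7.31-fold), whose products bind the ring, were higher in the embryonic cell.

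The mitochondrial chaperonin, made of the barrel protein Hspd1 (Hsp60) and its lid Hspe1 (Hsp10), was also present in both cells. Hspd1 had 13382 and 5839, a difference of 2.29-fold. Hspe1 had 21932 and 13506, a difference of 1.62-fold, and a second probe set gave 8275 and 5619. Both partners leaned towards the embryonic cell without reaching 4-fold.

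Across the 8 mitochondrial members measured, 7 were above the limit in the embryonic cell and 4 in the newborn cell. The shares of all named genes above it were 30.7% and 28.4%, with 18.9% above it in both. The 3 found in the embryonic cell alone were Dnaja3, Dnajc15 and Dnajc30, of which Dnajc15 was called. Of 10 other mitochondrial folding and protease genes, 3 were higher in the embryonic cell: Trap1, the mitochondrial Hsp90 (7442 against 21.9, at least 21.8-fold, with a second probe set past 4-fold the same way), the protease gene Lonp1 (4409 against 16.3, at least 12.9-fold) and Grpel2, an exchange factor for Hspa9 (3536 against 131, at least 10.3-fold). A second probe set of Grpel2 gave the opposite order, 13.8 against 2960. The iron-sulfur cluster chaperone Hscb, a J-domain gene under another name (41.8 against 4116, at least 17.4-fold), and the protease gene Afg3l2 (306 against 3569, 11.6-fold) were higher in the newborn cell. The mitochondrial genes therefore included large differences in both directions. So did all named genes, with 9.46% called higher in the newborn cell and 7.41% in the embryonic cell.

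The ER, with 12 of the 88 members, held 3 of the 5 called higher in the newborn cell, against 9.46% of all named genes so called. Of these 12 members of the ER lumen or membrane, 7 were above the limit in the newborn cell and 5 in the embryonic cell. The shares of all named genes above it were 28.4% and 30.7%. The called ER members, all higher in the newborn cell, were Dnajc3, Dnajb9 and Hspa13. Dnajb9, a J protein of the lumen that is induced in the unfolded protein response, had 4.78 and 3638, at least 15.3-fold higher in the newborn cell, from its 1 probe set. With the mean over probe sets 1 of the 3 calls, that of Dnajb9, was left, and 2 at 8-fold. Scaled to the spike-ins there were 3, although the median log2 ratio of the ER members above a limit went from 0.46 to -0.41. The lumenal chaperones Hspa5, Hsp90b1, Dnajc10 and Dnajb11 (3607 and 4246) were detected in both cells within 2-fold by the probe sets used. Further probe sets of Hspa5 (234 and 589) and Hsp90b1 (5770 and 2690) were past 2-fold.

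Of 18 other ER folding and stress response genes, 16 were above the limit in the newborn cell and 14 in the embryonic cell. Of these 18, 3 were called, all higher in the newborn cell, where 9.46% of all named genes were so called. Xbp1, the transcription factor that drives one branch of the response, had 359 and 2907, 8.09-fold higher, and its 3 other probe sets above the limit were all past 4-fold the same way. Herpud1, a degradation factor of the ER membrane, had 732 and 5886, 8.04-fold higher, with a second probe set past 4-fold as well. Sil1, the exchange factor of Hspa5, had 72.2 and 1106, at least 4.67-fold higher. Sec63, a J-domain gene of the translocation channel, had 89.4 and 6470, at least 27.3-fold higher, and 2 of its other probe sets were past 4-fold too, although a weak one was above the limit in the embryonic cell alone (490 against 32.4). Yet Calr (13555 and 8831), Canx (9546 and 7345) and P4hb (11753 and 10607), which fold glycoproteins and join disulfides, differed by less than 2-fold, and the stress factor gene Ddit3 was in neither cell (105 and 61.4).

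**Figure D3:**
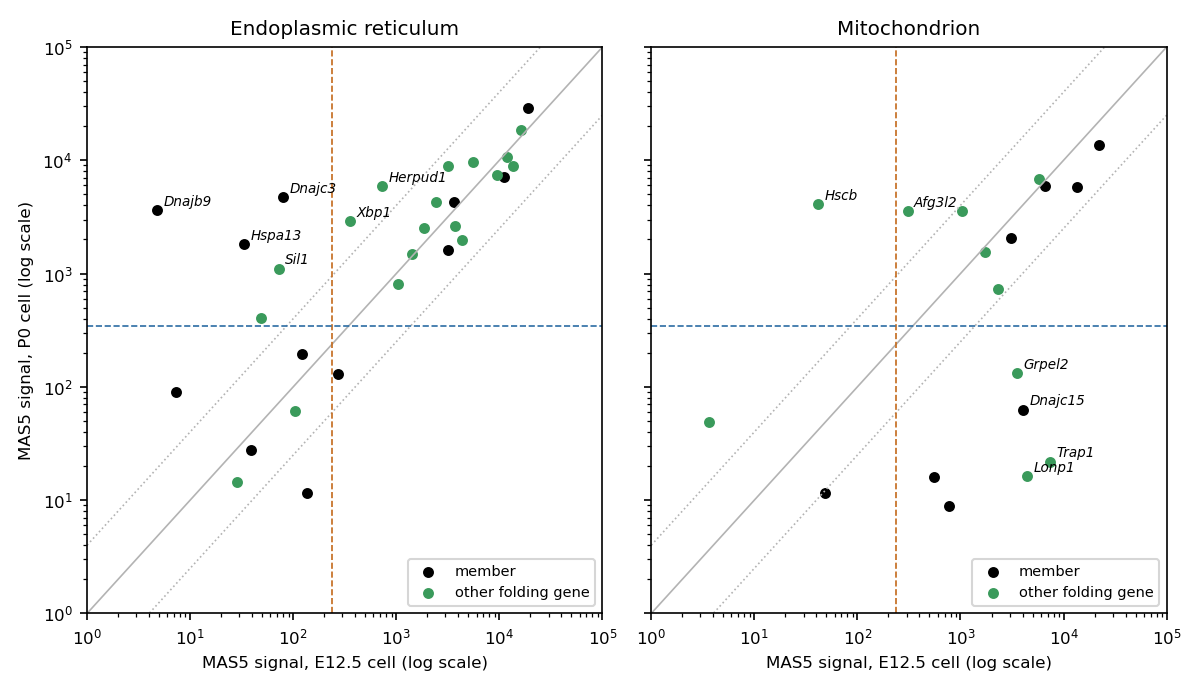
MAS5 signal in the newborn cell against the embryonic cell (log scales) for ER genes on the left and mitochondrial genes on the right, members in black and other folding genes in green. Dashed lines are the limits, 342.0 (horizontal) and 237.1 (vertical), the solid line is equality and dotted lines mark 4-fold on signals as deposited. Names are given to the called genes, which on the left all lie above the upper dotted line and on the right fall on both sides.

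Promoter sequences were set beside these genes because genes of ER chaperones are known to carry an ER stress element, a paired site for NF-Y and the factors ATF6 and XBP1. RefSeq promoters of build GRCm38.p6 were on hand for 73 of the 88 members, and the 250 bases before each start were searched on both strands. The ER stress element was found in 3 members, Hspa5, Hsp90b1 and Dnajc3, which are 27.3% of the 11 ER members with a promoter, and in 35 of all 27025 genes (0.130%). A match is a description and not a bound site. The 150 bases before the start are given for those 3 and for Dnajb9, with the element in capitals, each in the direction of its gene. They lie at chr14:118937782-118937931 on the plus strand (Dnajc3), chr12:44210069-44210218 on the minus strand (Dnajb9), chr2:34771940-34772089 on the plus strand (Hspa5) and chr10:86705445-86705594 on the minus strand (Hsp90b1).
Dnajc3: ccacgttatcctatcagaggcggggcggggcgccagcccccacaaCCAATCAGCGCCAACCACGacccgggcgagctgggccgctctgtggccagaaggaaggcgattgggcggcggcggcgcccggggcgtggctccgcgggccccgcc
Dnajb9: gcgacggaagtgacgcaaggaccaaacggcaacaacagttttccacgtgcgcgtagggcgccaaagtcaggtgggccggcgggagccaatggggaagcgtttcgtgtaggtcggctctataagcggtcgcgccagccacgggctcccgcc
Hspa5: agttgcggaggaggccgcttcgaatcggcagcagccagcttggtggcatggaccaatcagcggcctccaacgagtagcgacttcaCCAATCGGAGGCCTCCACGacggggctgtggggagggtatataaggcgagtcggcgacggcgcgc
Hsp90b1: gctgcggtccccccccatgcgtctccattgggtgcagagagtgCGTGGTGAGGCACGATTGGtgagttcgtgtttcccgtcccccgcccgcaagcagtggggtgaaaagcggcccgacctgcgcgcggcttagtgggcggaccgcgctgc

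The match began 105 bases before the start in Dnajc3, 65 in Hspa5 and 107 in Hsp90b1, where it runs on the opposite strand and a second match began 212 bases before the start. Dnajb9 holds no match in its window. Of the 3 genes with the element, Dnajc3 was detected in the newborn cell alone and Hspa5 and Hsp90b1 in both cells. Hspa5 and Hsp90b1 were added to this display after their values had been seen.

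Heat-inducible members, a list of textbook targets of heat shock factor 1, were by the probe sets used detected in both cells or in neither. Of 14 genes, 7 were above the limit in both cells (Hspa8, Hsp90aa1, Dnaja1, Hspd1, Hspe1, Hsph1 and Hspa4l). The other 7 were in neither (Hspa1a, Hspa1b, Hspb1, Hspb8, Dnajb1, Dnajb4 and Bag3). Called were 0, against 9.46% (newborn cell higher) and 7.41% (embryonic cell higher) of all named genes. This rests on the choice of probe set. With the one of highest signal in either cell, 6 were above the limit in the embryonic cell and 7 in the newborn cell. Then 2 were called higher in the newborn cell and 0 in the embryonic cell, against 10.3% and 8.23% of all named genes. Hspa1a and Hspa1b, the near-identical stress forms of Hsp70 that are all but silent until proteins unfold, had 1.21 and 60.1 in the embryonic cell and 1.38 and 25.3 in the newborn cell. Because their transcripts are so alike, the array cannot assign signal to 1 of them with certainty, but no probe set of either was above the limit. Of 4 heat shock factor and partner genes measured, the binding protein gene Hsbp1 alone was above the limit (4932 and 6787), with Hsf2 at 56.4 and 5.04. The gene of heat shock factor 1 itself, Hsf1, was not among those measured.

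Immediate early genes, which cell dissociation can raise, were present in the same cells and are given for comparison. Of 18, 10 were above the limit in the embryonic cell and 6 in the newborn cell, including Fos (5535 and 6292), Egr1 (2786 and 5198) and Jun (1661 and 3085) in both. Called were Ier3 (10.6 and 13469), at least 56.8-fold higher in the newborn cell, and Jund (3316 and 78.8), Btg2 (2791 and 18.3) and Klf4 (1813 and 17.2), at least 9.70-fold, 8.16-fold and 5.30-fold higher in the embryonic cell. A second probe set of Btg2 had the opposite order (6.61 and 5471). Among all named genes, 9.46% were called higher in the newborn cell and 7.41% in the embryonic cell. These cells therefore held Fos and Egr1 transcripts while neither Hspa1a nor Hspa1b was detected, and the part of dissociation in either was not tested. With the limit at the 95th percentile, 9 of the 14 heat-inducible genes were above it in the embryonic cell and 8 in the newborn cell. Scaled to the spike-ins, 1 of the 14 was called higher in the embryonic cell and 0 in the newborn cell. The shares of all named genes on that scale were 11.7% and 6.08%.

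The heat shock element was searched as GAANNTTC or TTCNNGAA, each of which reads the same on both strands, and the forms can overlap in a longer array. One or both were found in 8 of 12 heat-inducible members with a promoter (66.7%), in 17 of all 73 members (23.3%) and in 3932 of all 27025 genes (14.5%). The matching heat-inducible genes were Dnaja1, Dnajb4, Hspa1a, Hspa1b, Hspb1, Hspd1, Hspe1 and Hsph1, which include genes detected in both cells and genes detected in neither. An array of 3 units, GAANNTTC followed by NNGAA or its reverse complement, was found in Dnajb6, Hspd1 and Hspe1 among members and in 0.514% of all genes. Hspd1 and Hspe1 lie head to head on chromosome 1 and share that array. It is shown for Hspe1 in 30 bases on the plus strand at chr1:55088053-55088082, and for Hspa1b in 150 bases before its start on the minus strand at chr17:34959239-34959388, with the matches in capitals. The pair was chosen after the values had been seen, as a gene detected in both cells and a gene detected in neither.
Hspe1: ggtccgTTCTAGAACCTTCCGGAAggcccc
Hspa1b: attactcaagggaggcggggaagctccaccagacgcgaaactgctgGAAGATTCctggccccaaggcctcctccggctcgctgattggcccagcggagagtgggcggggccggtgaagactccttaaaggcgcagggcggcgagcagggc

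Genes known mainly from testis served as a look at the lower end of the scale. The 10 genes Hspa1l, Hspa2, Hspb9, Cct6b, Dnajb3, Dnajb7, Dnajb8, Dnajb13, Dnajc5b and Dnajc5g had signals of at most 119 in the embryonic cell and 95.6 in the newborn cell, and 0 of their 10 probe sets were above a limit. Other members detected in neither cell included Dnajc6, the auxilin of neurons (41.3 and 58.7), Dnajc12 (34.2 and 3.45), Dnajb2, a neuronal form (11.3 and 10.2), and Dnajb14, Dnajc1, Dnajc16 and Dnajc25 of the ER. Dnajb5, Dnajc22, Dnajc24, Dnajc28, Cct8l1 and Hspbap1 were below the limits as well.

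Probe sets of the same gene gave the only measure of error on a ratio between the 2 arrays. They read the same amplified cDNA of each cell, so error from picking or PCR is not in it. Among 27 member genes with at least 2 probe sets above a limit, all of them had ratios of 1 sign for 23 genes, and signs differed for Cct4, Dnajc8, Hspa9 and Hsph1. For Hspa9 the odd one is a weak probe set, 319 and 43.8, whose order turns only because the second signal is raised to the limit. For members above the limit in both cells by 45 probe sets of 16 genes, the SD of the log2 ratio within a gene was 0.88, close to the 0.84 over 984 named genes. By probe set in place of gene, 13 were called higher in the newborn cell and 10 in the embryonic cell, which adds Hspa4l, Dnaja1, Cct3 and Dnajc8 to the former and Hspa4, Dnaja2 and Hsph1 to the latter. Of the 9 called genes, 5 had a further probe set above a limit, and in 4 of those at least 1 was itself past 4-fold the same way.

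**Figure D4:**
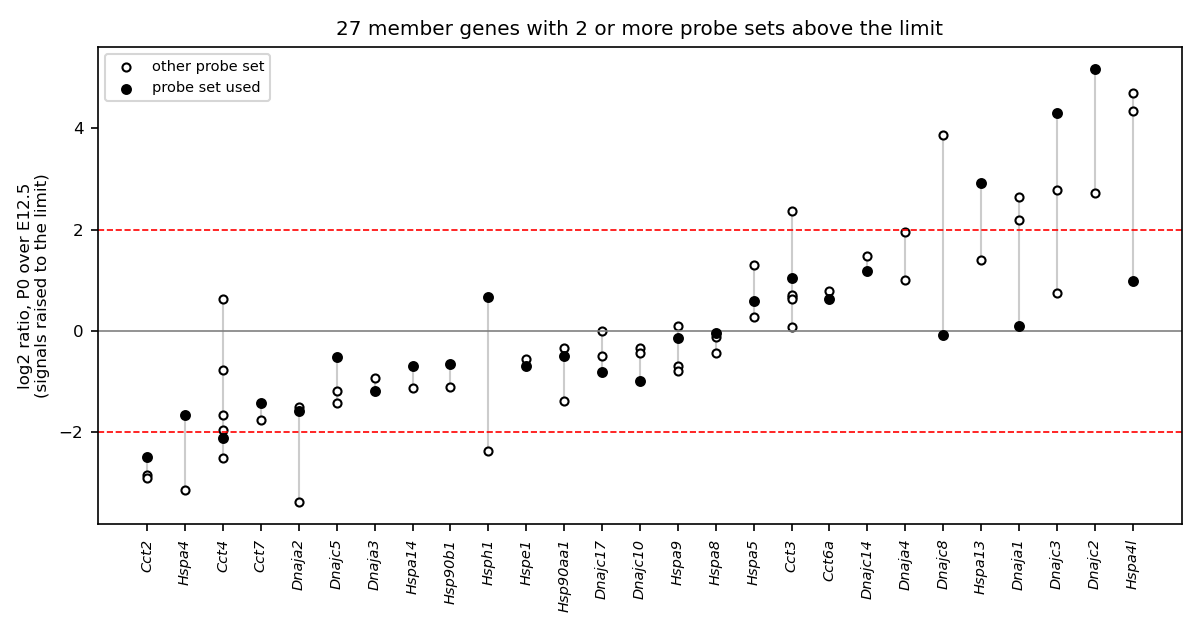
Log2 ratio of P0 over E12.5, with signals raised to the limits, for every probe set above a limit of the 27 member genes that have at least 2 such probe sets, ordered by their median. Filled circles are the probe sets used for the gene, open circles the others, and red lines mark 4-fold. Dnaja4 has open circles only because the probe set used for it was below the limits. Cct2 lies below the lower line with every probe set, while Hsph1, Dnajc8 and Hspa4l spread widely.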

How the data were processed

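Per the labels' protocols and the submitters' processing notes, 2 single cells were hybridised to 1 Affymetrix whole-genome mouse array each, and the authors deposited signal intensity values on a linear scale computed with MAS5, whose version is not stated in any source used here. MAS5 scales each array on its own, and the mean signal without 2% at each end was 500.0 in both. Arrays have no read depth, so intervals were not computed.

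The platform annotation at GEO named 1 gene for 34958 of 45101 probe sets and several for 932, and did not list 9211. Where a gene had several probe sets, the one brightest on average over both cells (mean of log2 values taken here from the deposited intensities) stood for it. By rule, members above a limit are named with both signals, called members with their fold and other probe sets, other folding genes where called, and promoters for called members of the heat-inducible, ER and Hsp70 lists. The members and lists were chosen with earlier results of these data known. Background families included olfactory, taste and vomeronasal receptors, hair keratin-associated proteins, defensins, milk and sperm proteins. No test was possible, so no p-value is given. The calling step was tested on simulated data, with large changes set in bright genes, low noise and the same limit for both arrays. That check does not cover calls against a signal under the limit, nor the error of these arrays. Alternatives were other limits, a pseudocount of 100.0, other scalings, folds and choices of probe set. Promoters came from RefSeq. Chromosome 18 was left out of the promoters considered for display, while the motif counts were not filtered by chromosome. Work was done in Python 3.11.15 with pandas 2.3.3 and numpy 2.4.6.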

Additional observations from a re-analysis of the deposited data

Results flagged for a closer look

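A further 3 probe sets carry a name of the family together with a second gene name and so were left out of every count. Of these, 1 had signals of 687 (E12.5) and 2090 (P0), above both limits, and another had 59.4 (E12.5) and 347 (P0), just above the P0 limit of 342.0. They are given because signal appeared in data that the comparisons do not use. The gene behind it cannot be told from the array. No other result met a rule for a closer look, since 1 cell per age allows no search for outlying samples.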

How the results depend on the processing

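The counts of members above the limit stayed within 1.5 times under each alternative by gene, 32 to 52 (E12.5) and 30 to 46 (P0), and were 80 and 77 by probe set. With the limit at the 95th percentile, 52 (E12.5) and 44 (P0) of 88 members were above it. The shares of all named genes were then 39.1% and 42.5%, in place of 30.7% and 28.4%, so the margin of members over all genes depends on the limit. Members higher in the newborn cell numbered 5, and 10 with no filter, 2 with the mean over probe sets, 8 at 2-fold and 13 by probe set. Those higher in the embryonic cell numbered 4, and 9 with a limit from the 95th percentile (10.9% of all named genes) or the bacterial controls, 22 with no filter, 8 with the pseudocount or without cross-hybridising probe sets, 11 scaled to the spike-ins or at 2-fold, 1 at 8-fold and 10 by probe set. The median log2 ratio of members above a limit, -0.36, was -0.52 and -0.53 with those 2 limits, -0.59 with no filter, -0.57 with the pseudocount, -1.22 scaled to the spike-ins, -0.25 after quantile normalisation and -0.50 without cross-hybridising probe sets, and turned to 0.06 with the mean over probe sets. The cause was not tested. Of the 9 called genes, Bag1, Dnajb9 and Dnajc15 kept their call under all 12 alternatives run for them. Each has 1 probe set, so the mean over probe sets and the choice of probe set could not change these calls. Dnajc2 and Dnajc3 lost it with the mean over probe sets, Dnajc21 and Hspa13 with it too, being above no limit, and Cct2, Dnajc21 and Hspa13 at 8-fold, and Cct4 with that mean, at 8-fold and after quantile normalisation. Choosing the probe set with the highest signal in either cell, an alternative added after seeing the data, gave 7 and 5. No paired analysis was possible because each age has 1 cell. Signals near the limits, such as those of Dnajb12, Dnajc27 and Dnajc18, cannot be told from background with certainty.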
